A study of Rattus norvegicus with 48 samples.

Results

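The genes described here are the 59 whose RNA was higher in both fat depots of rats exercised late in the active phase than in those of sedentary rats collected at the same phase. They were chosen out of 23481 genes of the table, of which 13574 had a mean of 1 CPM or more over all 48 libraries (CPM, a gene's count scaled to a library total of 1e6). The measure of the choice was L, which is log2(CPM + 0.5). A gene was taken when 4 late exercise libraries of subcutaneous fat (replicates 1, 2, 3 and 5) each lay above every late control library of that depot. Its mean L also had to be at least 0.3 higher in those 4 libraries than in the 6 controls, and at least 0.2 higher in visceral fat over all 6 late exercise and all 6 late control libraries. The differences that chose the genes are those of the late libraries, and they are given below as a description. Counts from fits of these contrasts across all genes close the account, and nothing is read from them. The early libraries, and SAT late exercise replicates 4 and 6, entered the choice only through the floor of 1 CPM.

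RNA was measured by polyA-selected sequencing of visceral fat (VAT) and subcutaneous fat (SAT) of male adolescent rats. The groups were late active phase exercise (LAE) and late active phase control (LAC), both of zeitgeber time 23, and early active phase exercise (EAE) and early active phase control (EAC), both of zeitgeber time 13, where zeitgeber time counts the hours after lights on. Each group had 6 rats and gave 6 libraries of either depot, all taken on postnatal day 61 and 24 h after the last exercise session. The controls were sedentary, and the labels state no strain and no form of exercise.

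White fat stores triglyceride and releases fatty acids between meals and during exercise, and it also secretes hormones that act on appetite and insulin sensitivity. Subcutaneous and visceral depots differ in developmental origin, in their cell makeup and in how readily they release fat, and many of their genes follow the time of day. Rats are active in the dark, so the early and late groups stand for the start and the end of the active part of the day. The table names genes by Ensembl ID only, and 0 of the IDs could be paired with a symbol. The roles of the members are therefore not given, the labelled tissues could not be checked against marker genes, and no sequence of a member is shown. A pair of members is named by ID and the others are described by their values. In bulk tissue, fewer cells of a type and less RNA per cell cannot be told apart.

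Libraries held 13163675 to 17890033 estimated counts, with a median of 15576425, so 0 counts in the lowest library allow up to 0.228 CPM (3 counts of the total, counting error only). LAE libraries of SAT held 13163675 to 16550286 counts and LAC libraries of SAT 13211806 to 16909857. Some libraries stood apart from their depot. In SAT, LAE replicates 4 and 6 held 787 and 861 genes at more than 4 times their median over the depot, where the other 22 libraries held 12 to 208. In VAT, EAE replicate 3 and EAC replicate 5 held 457 and 365 such genes, where the other 22 held 7 to 67. The conditions on late exercise in SAT did not use LAE replicates 4 and 6, and for the results that rest on any of these 4 libraries the counts of called members, the early medians and the spread between rats are also given without them.

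The steps of the choice narrowed the genes sharply. Of the 13574 genes, 104 (0.766%) had the 4 SAT late exercise libraries above every SAT late control, 89 of these also had the SAT difference, and 59 of the 89 had the VAT difference. The VAT difference alone was met by 683 of the 13574 genes (5.03%), and by 66.3% of the 89 genes that met the SAT conditions. No more than that count is read from this, since the depots were sampled in the same groups of rats. The member nearest the VAT limit had a difference of 0.203 and the nearest gene outside it 0.199. At the SAT limit the nearest values were 0.309 inside and 0.271 outside. The smallest gap between the lowest of the 4 SAT exercise libraries and the highest SAT control was 0.0019 on the L scale among the members, and the nearest gene outside had a gap of 0.0. The lowest member by level had a mean of 1.63 CPM, and the nearest gene left out by the floor 0.912 CPM.

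The members spanned low and very high levels. Their mean over all libraries ran from 1.63 to 2958 CPM with a median of 31.2 CPM. Of the 59, 11 were under 10 CPM, 33 between 10 and 100, 11 between 100 and 1000, and 4 above 1000. Differences were larger in SAT than in VAT for 55 of the 59, an order that the choice itself favoured. The SAT limit was 0.3 and the VAT limit 0.2. The SAT difference was taken over 4 late exercise libraries that each had to exceed every control, and the VAT difference over all late exercise libraries. Whether late exercise changed the members more in SAT than in VAT was not tested. In SAT the median difference was 0.66 on the L scale (1.58-fold) with a range of 0.31 to 1.99, and 15 members differed by 1 or more. In VAT the median was 0.36 (1.29-fold) with a range of 0.20 to 1.12, and a single member differed by 1 or more.

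**Figure D1:**
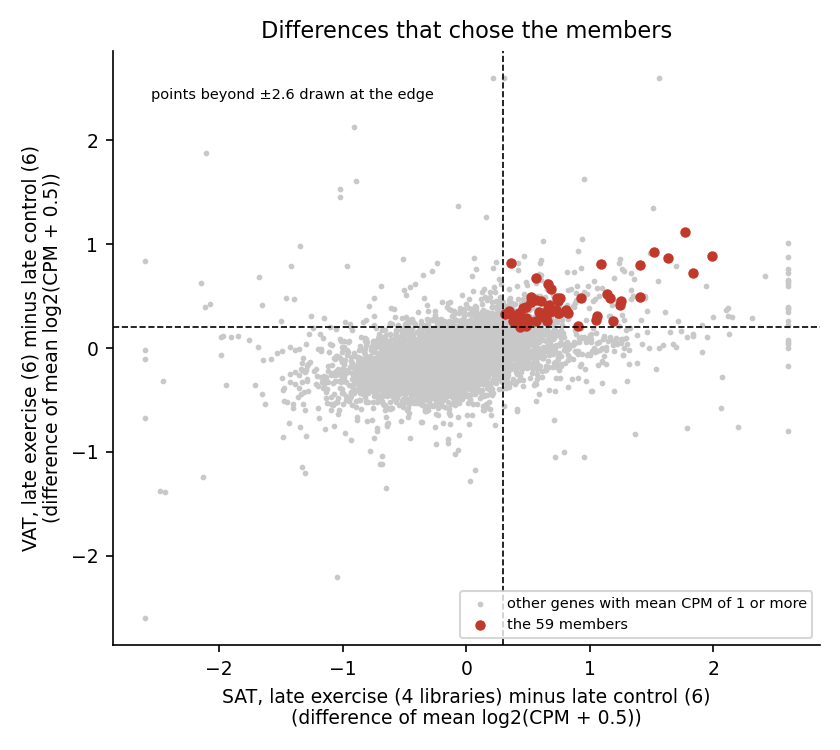
Each point is 1 of 13574 genes, with the difference in mean log2(CPM + 0.5) between late exercise and late control in SAT on the x axis and in VAT on the y axis. Dashed lines mark the limits of 0.3 and 0.2; the 59 members in red lie right of and above both, with SAT differences of up to 1.99 and VAT differences of up to 1.12.

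The scale on which libraries were compared mattered for how many genes were chosen. By column totals, as in the choice, the median difference of all 13574 genes between late exercise and late control was -0.12 in SAT and -0.08 in VAT. The same conditions turned round, for genes lower after late exercise in both depots, were met by 230 genes. With library sizes scaled by TMM (edgeR's trimmed mean of M values) the median differences of all genes lay within 0.005 of 0, and 163 genes were higher and 63 lower. The share of higher genes among those found was thus 20.4% by column totals and 72.1% by TMM sizes. All 59 members were among the 163, and their median difference was 0.77 in SAT and 0.44 in VAT on that scale.

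ENSRNOG00000017473 had the largest summed difference of the members at 5 CPM or more. In VAT it ran from 17.3 to 69.0 CPM in LAE libraries (median 50.1), and from 8.26 to 35.3 CPM in LAC libraries (median 22.2). LAE replicate 6, at 17.3 CPM, was the only VAT late exercise library within the range of the controls. In SAT the 4 LAE libraries of the choice ran from 11.02 to 35.2 CPM (median 22.5), the LAE replicates 4 and 6 stood at 2.598 and 2.23 CPM, and the LAC libraries ran from 2.598 to 9.13 CPM (median 6.12). The replicates 4 and 6 thus lay level with the lowest control or below it. The mean of the 4 was 3.41-fold that of the controls in SAT, and the VAT difference was 2.17-fold, both as geometric means of CPM + 0.5.

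In the early groups the same gene showed no such step. In VAT its median was 13.9 CPM in EAE (7.54 to 25.1) and 20.3 CPM in EAC (11.4 to 40.3). In SAT its median was 4.83 CPM in EAE (2.62 to 6.80) and 5.46 CPM in EAC (2.57 to 12.1). Exercised and sedentary libraries overlapped in both depots. The early exercise change was -0.56 ± 0.39 in VAT and -0.32 ± 0.55 in SAT on the log2 scale (SE, n = 6 in each group; adjusted p = 0.9996 and 0.9998, edgeR). Without SAT EAC replicate 3 the SAT value turned to 0.02, and without the libraries that stood apart the VAT value was -0.63.

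ENSRNOG00000049911 was higher in level. In VAT it ran from 390.7 to 1187 CPM in LAE libraries (median 557) and from 169 to 695 CPM in LAC libraries (median 329), and these ranges overlapped. In SAT the 4 LAE libraries of the choice ran from 261 to 530 CPM (median 309), LAE replicates 4 and 6 stood at 86.3 and 62.8 CPM, and the LAC libraries ran from 55.5 to 135 CPM (median 100.1). The 4 libraries were all well above the controls, and replicates 4 and 6 were within the control range. The difference was 3.56-fold in SAT over the 4 libraries and 1.65-fold in VAT.

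The early groups of this gene stood between the late ones in SAT, with a median of 178 CPM in EAE (142 to 251) and 193 CPM in EAC (142 to 374). In VAT they lay at the level of late exercise, with 594 CPM in EAE (481 to 822) and 707 CPM in EAC (439 to 827). The early exercise change was -0.11 ± 0.31 in VAT and -0.25 ± 0.40 in SAT on the log2 scale (SE, n = 6 in each group; adjusted p = 0.9996 and 0.9998, edgeR). In VAT it was thus the late controls that had the lowest median of the 4 groups.

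**Figure D2:**
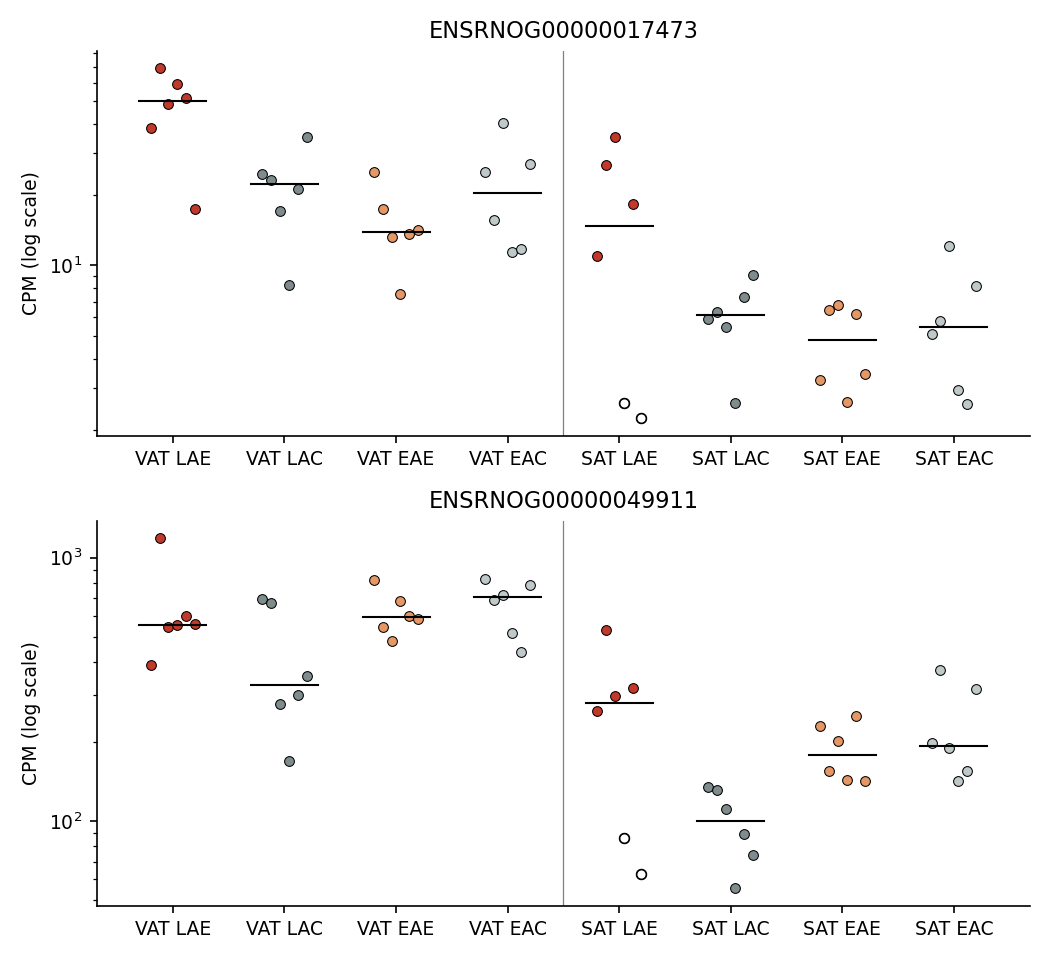
CPM on a log axis of ENSRNOG00000017473 (top) and ENSRNOG00000049911 (bottom) in the 6 libraries of each group, VAT left and SAT right; the bar is the median and open circles are SAT LAE replicates 4 and 6. ENSRNOG00000017473 reached 35.2 CPM in SAT late exercise against at most 9.13 CPM in SAT late control, while the open circles stood at 2.598 and 2.23 CPM.

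The 4 members over 1000 CPM made up 69.7% of the summed mean CPM of all 59. The most abundant averaged 4471 ± 794 CPM in LAE and 3569 ± 842 CPM in LAC of VAT, and 2356 ± 1566 CPM in LAE and 2066 ± 464 CPM in LAC of SAT (SD, n = 6). The SAT exercise mean is over all 6 libraries, which ran from 524 to 4525 CPM, where the controls ran from 1173 to 2411 CPM. All members together took 1.25% to 1.99% of the counts of VAT LAE libraries and 0.831% to 1.55% of VAT LAC libraries. In SAT they took 0.475% to 1.37% in LAE and 0.447% to 0.799% in LAC. The lowest SAT exercise values of the sum, 0.475% and 0.535%, were those of replicates 6 and 4.

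Among the members over 1000 CPM, the early libraries took different places. The second most abundant averaged 2446 ± 272 CPM in LAE, 2021 ± 437 CPM in LAC, 2795 ± 405 CPM in EAE and 2819 ± 547 CPM in EAC of VAT (SD, n = 6), so both early groups lay above late exercise. The third averaged 2306 ± 498 CPM in LAE, 1659 ± 419 CPM in LAC, 831 ± 182 CPM in EAE and 1024 ± 235 CPM in EAC of VAT, so both early groups lay below late control. In SAT the third was at 1620 ± 137 CPM in LAE over all 6 libraries and at 1167 ± 84.5 CPM in LAC. Its LAE range of 1398 to 1819 CPM lay wholly above the LAC range of 1051 to 1285 CPM, replicates 4 and 6 included. The choice required this of the other 4 libraries, and 37.9% of all genes had replicates 4 and 6 both above every SAT control.

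The place of the late groups beside the early ones was counted over all members. The mean L of late exercise (SAT, 4 libraries) lay above both early groups for 54 of the 59 in SAT and 47 in VAT. Late control lay below both early groups for 37 in SAT and 27 in VAT. Over all 13574 genes, late exercise lay above both early groups for 34.6% in SAT and 29.8% in VAT, and late control lay below both for 34.0% and 43.7%. The median member stood 0.47 above the mean of the early groups in SAT late exercise and 0.15 below it in SAT late control, with 0.36 above and 0.03 below in VAT. Both late groups entered the choice, so these positions are descriptions, and early and late rats are different animals.

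**Figure D3:**
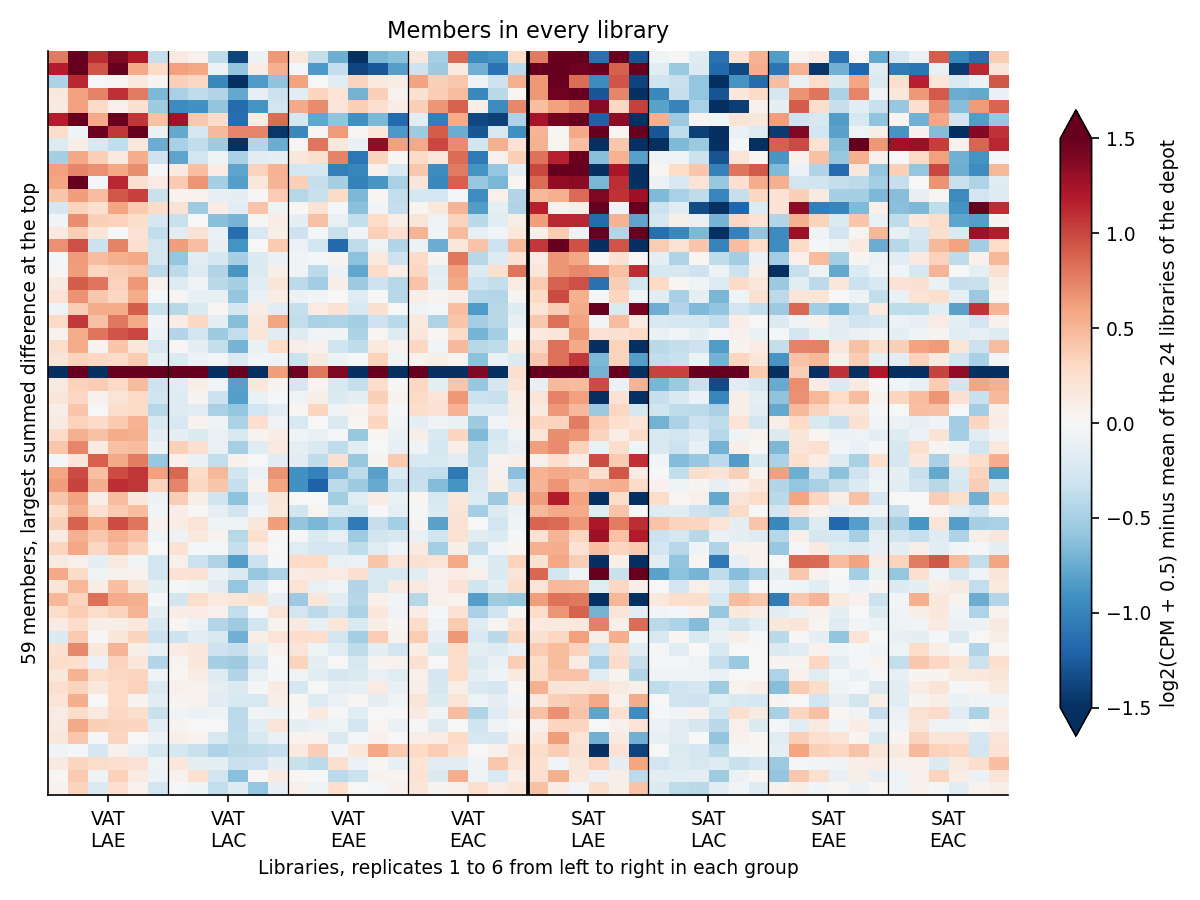
The 59 members (rows) in each of the 48 libraries (columns, grouped), coloured by log2(CPM + 0.5) minus the mean of the 24 libraries of the depot, with the scale ending at 1.5 in either direction. In VAT late exercise 5 of the 6 columns are red over most rows and replicate 6 is not; in SAT late exercise replicates 4 and 6 mix dark red and dark blue rows.

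The late exercise libraries of VAT were not alike. Above every VAT control stood 55 of the 59 members in replicate 2 and 54 in replicate 4, where 11.2% and 12.5% of all genes did. In replicates 1, 3 and 5 it was 33, 36 and 42 members, against 9.63%, 7.75% and 7.77% of all genes. In replicate 6 it was 0 members, against 8.27% of all genes, and the median member there was 0.04 below the control mean. None of the 59 members had all 6 late exercise libraries above all 6 controls, which 0.0958% of all genes had. For 38 members 5 of the 6 late exercise libraries exceeded the control median, and for 13 members all 6 did, which was not counted over all genes. The VAT libraries entered the choice only as means, so these counts describe how the chosen differences were spread over libraries.

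SAT LAE replicates 4 and 6 entered the choice only through the floor on level. The choice required the other 4 to lie above every control, so a contrast with those 4 is by construction. In both replicates 24 of the 59 members lay above every SAT control, where 40.9% (replicate 4) and 47.97% (replicate 6) of all genes did, and 21 members did so in both, where 37.9% of all genes did. In each of them 20 members lay below every control, where 32.9% and 27.6% of all genes did. The median member was 0.10 above the mean of the controls in replicate 4 and 0.12 in replicate 6, beside 0.08 and 0.22 over all genes. The quartiles of the members were -0.81 and 0.75 in replicate 4 and -0.83 and 0.81 in replicate 6. Members over 4-fold above the median of the other 22 SAT libraries numbered 6 and 2, beside 823 and 899 of all 13574 genes. Those over 4-fold below it numbered 6 and 8, which was not counted over all genes. The VAT libraries of the same replicate numbers differed from one another, since VAT replicate 4 was among the highest for the members and VAT replicate 6 the lowest.

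**Figure D4:**
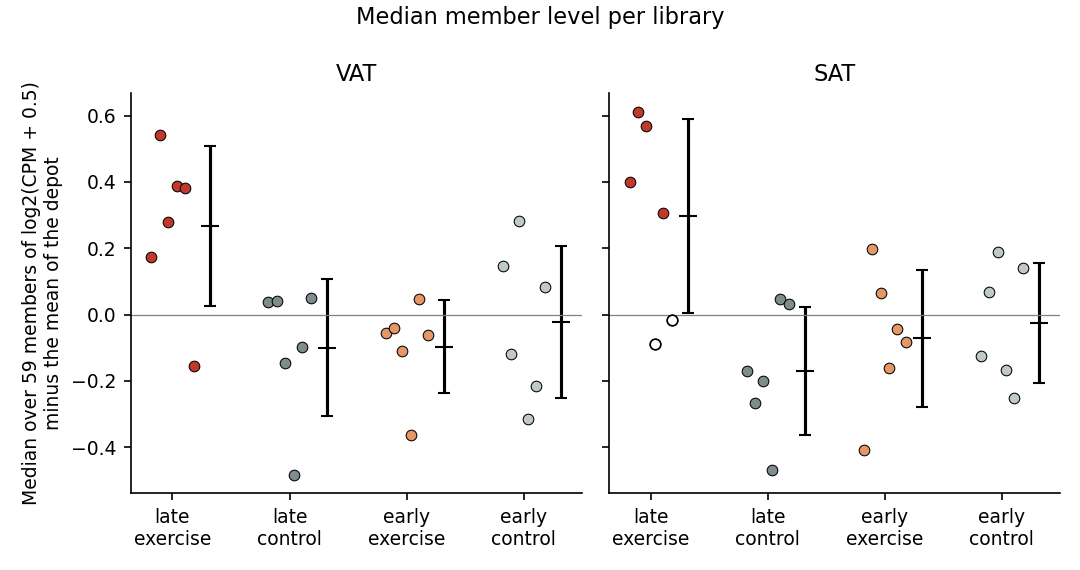
Median over the 59 members of log2(CPM + 0.5) minus the mean of the 24 libraries of the depot, 1 point per library, with the mean and SD of each group beside it (n = 6) and open circles for SAT LAE replicates 4 and 6. VAT late exercise runs from -0.16 to 0.54 and VAT late control from -0.48 to 0.05, while early exercise and early control overlap in both depots.

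Exercise at the early active phase was compared in libraries that entered the choice only through the floor on level. In SAT, 0 of the 59 members and 0 of 14372 genes (0.0%) were called by edgeR's quasi-likelihood test at an adjusted p under 0.05. At an unadjusted p under 0.05 edgeR had 0 members higher and 1 lower in exercised rats, beside 0.515% and 0.397% of all genes. In VAT, 0 of the 59 members and 0 of 13883 genes (0.0%) were called, and at an unadjusted p under 0.05 there were 0 members higher and 2 lower, beside 1.32% and 1.17% of all genes. DESeq2 and limma voom also called 0 members in either depot. Over all genes DESeq2 called 3 of 14372 in SAT, all higher, and 0 of 13883 in VAT. Limma voom called 0 genes in either depot. At an unadjusted p under 0.05 DESeq2 had 2 members lower in VAT, beside 1.22% of all genes, and 1 lower in SAT, beside 0.452%. Limma voom had 4 lower in VAT, beside 1.62% of all genes, and 1 higher and 1 lower in SAT, beside 1.92% and 1.8%.

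The median early differences of the members were small, while single members ran from -0.59 to 0.37 in SAT and from -0.56 to 0.60 in VAT. In SAT 26 members were higher and 33 lower in early exercise than in early control, with a median log2 change of -0.02, against 0.002 over all genes tested. In VAT 13 were higher and 46 lower, with a median of -0.09 against 0.007 over all genes. Of all genes tested, 49.5% in SAT and 46.9% in VAT were not higher. Single libraries set the sign of these medians. The SAT median turned positive without EAE replicate 4 (0.003), EAE replicate 6 (0.01), EAC replicate 3 (0.03) or EAC replicate 6 (0.01), and the VAT median without EAC replicate 3 (0.03). Without VAT EAE replicate 3 and EAC replicate 5 the VAT median was -0.12 and 12 members were higher.

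The member with the smallest p in SAT ran from 2.34 to 7.32 CPM in EAE (median 6.20) and from 6.24 to 11.1 CPM in EAC (median 7.43). The ranges overlapped, and its log2 change was -0.49 ± 0.21 (SE; adjusted p = 0.9998, edgeR). The member with the smallest p in VAT ran from 8.58 to 14.4 CPM in EAE (median 12.3) and from 10.3 to 21.4 CPM in EAC (median 18.04), with a log2 change of -0.51 ± 0.21 (SE; adjusted p = 0.9996, edgeR). In late exercise both had been chosen as higher, by 0.68 and 0.53 in SAT and by 0.57 and 0.44 in VAT on the L scale. Whether exercise acted on the members differently at the early and late phase was not tested here, because the late contrast chose them.

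The depots were compared in early rats, whose libraries entered the choice only through the floor on level. There 47 of the 59 members were higher in VAT than in SAT and 1 was higher in SAT (edgeR, adjusted p under 0.05). Over all 14693 genes tested 20.1% were higher in VAT and 20.1% higher in SAT, so 79.7% of the members stands beside 20.1% of all genes. The median member was higher in VAT by 0.78 on the log2 scale, against -0.006 over all genes. The quartiles of the members were 0.45 and 1.08, against -0.23 and 0.22 over all genes. The higher-in-VAT count was 47 with DESeq2 size factors, beside 3095 of all 14693 genes. It was 48 without the 4 libraries that stood apart, beside 23.5% of all genes, and 49 with limma voom, beside 25.9%. The single call in SAT did not hold up: it was 0 with limma voom, where 27.5% of all genes were higher in SAT, and 0 in 7 of the 24 fits that left out 1 early library (SAT EAE 2, SAT EAC 5 or 6, VAT EAE 4 or 6, VAT EAC 4 or 6). It was 1 without the 4 libraries, beside 27.8%. The labels do not tie the depot libraries of a rat to each other, and the fit takes them as independent.

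**Figure D5:**
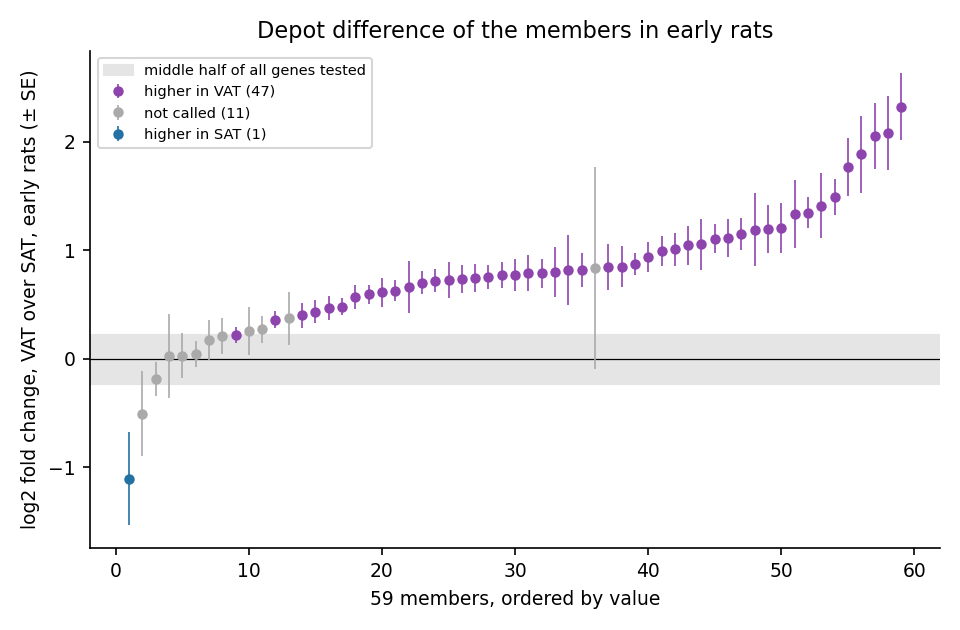
Log2 fold change of VAT over SAT in early rats (EAE and EAC averaged) for the 59 members in order, with standard errors from edgeR. Purple points (47) passed as higher in VAT, the blue point (1) as higher in SAT and grey points (11) did not pass; the grey band runs between the quartiles of all genes tested, from -0.23 to 0.22.

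The member with the widest depot difference stood at 136 CPM (94.8 to 257) in EAE and 149 CPM (84.1 to 205) in EAC of VAT as medians. In SAT its medians were 28.9 CPM (10.5 to 68.1) in EAE and 35.9 CPM (17.5 to 41.1) in EAC. The ranges of the depots did not overlap, and the fitted change was 2.32 ± 0.31 (SE; 5.003-fold, adjusted p = 1.21e-07, edgeR). In the late groups of SAT it stood lower, at a median of 19.7 CPM in LAE and 7.82 CPM in LAC, with 87.4 CPM in LAE and 71.4 CPM in LAC of VAT. The next widest, a member over 1000 CPM, had medians of 1493 CPM in EAE and 1412 CPM in EAC of VAT, and of 309 CPM in EAE and 430 CPM in EAC of SAT (2.08 ± 0.34, SE; adjusted p = 5.26e-06, edgeR).

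Both named IDs belonged to the genes higher in VAT. ENSRNOG00000017473 was higher there by 1.88 ± 0.35 (SE; adjusted p = 4.33e-05) and ENSRNOG00000049911 by 1.77 ± 0.27 (SE; adjusted p = 1.58e-06) on the log2 scale in early rats, by edgeR's quasi-likelihood test. Without the 4 libraries that stood apart the values were 1.99 and 1.87. The single member higher in SAT was the lowest of all in level, with medians of 0.847 CPM in EAE and 0.822 CPM in EAC of VAT, and of 1.20 CPM in EAE and 0.921 CPM in EAC of SAT. Its SAT values reached 4.59 CPM in EAE and 5.96 CPM in EAC, and the depots overlapped. It averaged 1.17 CPM in LAE, 0.902 CPM in LAC, 0.773 CPM in EAE and 0.818 CPM in EAC of VAT, so it passed the floor of 1 CPM through SAT, and its call as higher in SAT is no support for a depot difference. It was highest, at 10.9 CPM, in 1 of the SAT LAE libraries.

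The gap between the depots in late exercise depended on which SAT libraries were taken. The median member was higher in VAT by 0.44 in LAE over the 4 SAT libraries of the choice, by 0.73 in LAC, by 0.62 in EAE and by 0.63 in EAC on the L scale. With all 6 SAT LAE libraries the late exercise value was 0.65, with 49 members higher in VAT, and no longer below the early groups. Higher in VAT were 54 members in LAE with the 4 SAT libraries, 58 in LAC, 55 in EAE and 53 in EAC, where 36.3%, 30.8%, 36.2% and 31.6% of all genes were. The late values come from libraries that chose the members, whose larger SAT than VAT differences narrow the gap by construction.

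The depot difference was not limited to genes that met the VAT condition. Of the 30 genes that met the SAT conditions but not the VAT one, 23 (76.7%) were higher in VAT and 0 (0.0%) higher in SAT in early rats. Their median was 0.50 against 0.78 for the members. Of the 230 genes that met the conditions turned round, 10 (4.35%) were higher in VAT and 96 (41.7%) higher in SAT, with a median of -0.20. Over all genes tested 20.1% were higher in VAT and 20.1% higher in SAT. These lists were chosen on differences between late libraries and compared in early ones, and no test between the lists was made.

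The 47 members higher in VAT had SAT late differences of 0.31 to 1.83 (median 0.64) and VAT late differences of 0.20 to 1.12 (median 0.36) on the L scale. The 11 that were not called had 0.46 to 1.99 (median 0.74) in SAT and 0.21 to 0.89 (median 0.39) in VAT. The ranges of the classes overlapped in both depots.

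The spread of the members between rats was described in the early libraries. The median coefficient of variation among EAC libraries was 22.8% in VAT (5.73% to 124%) and 21.9% in SAT (6.43% to 157%), against 15.9% and 13.4% over all 13574 genes. Without EAC replicate 5 the VAT value was 21.02%, against 13.3% over all genes. Among the 12 early libraries of a depot, taken as deviations of L from the group mean, the median correlation between pairs of members was 0.48 in VAT and 0.25 in SAT, against 0.23 and 0.061 over all pairs of genes. Without EAE replicate 3 and EAC replicate 5 the VAT value was 0.54, against 0.19 over all pairs. Correlations over 0.5 made up 48.8% of the 1711 pairs in VAT and 28.5% in SAT, against 28.6% and 16.5% of all pairs. These correlations are descriptions, since all genes of a library share its tissue sample, depth and scaling. In each depot 6 members correlated below 0 with the median of the others, which was not counted over all genes. Without EAE replicate 3 and EAC replicate 5 the VAT count was 5.

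A member of 0 counts in many libraries stood out from the rest. It had 0 counts in 9 of 24 VAT libraries and 8 of 24 SAT libraries, and 1.33 to 14.7 CPM in the others, while the next such member had 0 counts in 1 library. In VAT it was at 0 in 2 of 6 LAE, 2 of 6 LAC, 2 of 6 EAE and 3 of 6 EAC libraries. In SAT it was at 0 in 1 of 6 LAE, 0 of 6 LAC, 3 of 6 EAE and 4 of 6 EAC libraries. Its depot difference in early rats was not called, at 0.84 ± 0.93 (SE; adjusted p = 0.505, edgeR). The differences that chose it were 0.90 in SAT and 0.21 in VAT on the L scale, the latter near the limit of 0.2. Fits over all 6 late exercise libraries of a depot gave 0.40 ± 1.23 in SAT and 0.36 ± 1.19 in VAT (SE, adjusted p = 0.745 and 0.953, edgeR).

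For the late contrasts themselves, edgeR's fit of each depot called 30 of the 59 members higher in SAT late exercise, where 7.83% of all genes were called higher, and 0 of the 59 in VAT, where 0.0% were. At an unadjusted p under 0.05 the members numbered 38 in SAT and 44 in VAT, where 18.8% and 6.84% of all genes were higher. These fits hold all 6 late exercise libraries, and without the libraries that stood apart the SAT count was 38 of 59, beside 1.44% of all genes. A fit of the SAT late groups alone called 0 members and 0.0% of all genes. At an unadjusted p under 0.05 it had 35 members higher, beside 1963 of all 13790 genes. In VAT DESeq2 called 4 members higher, beside 0.259% of all genes, and limma voom 7, beside 0.836%. DESeq2 gave 8 of the 59 members no adjusted p there, so these could not be called. The contrasts are those that chose the members, so nothing is read from these counts.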

How the data were processed

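The members and the tests were chosen with earlier results of these data known. The table holds estimated counts per Ensembl gene, deposited by the authors as whole numbers for 48 libraries, from 50-nt single-end reads of polyA-selected RNA, per the labels' protocols. The submitters' processing notes list Salmon 1.4.0 and rn6 and give them no role, and which annotation release was used is not given in the sources used here. Columns were matched to samples by library name, and 0 columns were left without one. Of 47357 rows of the table of rat gene names, 0 carried an Ensembl ID, so the lists of pathway and marker genes drawn up for this report could not be used, and named genes were limited to the 2 members at 5 CPM or more with the largest summed difference.

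CPM values use column totals. The test was the quasi-likelihood test of edgeR 4.0.16 (R 4.3.3), after filterByExpr and TMM scaling, with the 4 groups of each depot in 1 model or, for VAT minus SAT, all 8 groups, with Benjamini-Hochberg adjustment over all genes tested and a threshold of 0.05. All 59 members passed the filter in these fits. Standard errors are the log2 fold change over the square root of F. The scripts were tested on simulated counts with 200 genes changed. Alternatives were DESeq2 1.42.0, its size factors, limma 3.58.1 voom with sample quality weights, no filter, a block for the replicate number, a fit of the compared groups alone, and fits without single libraries or the 4 that stood apart. Replicates are separate samples of a group per the labels; all 120 pairs within groups differed by more than sampling noise (chi-square per degree of freedom of 8.15 or more).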

Additional observations from a re-analysis of the deposited data

Results flagged for a closer look

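Of 32 sets of 6 values examined for a single distant library, 2 had one; by chance about 1 in 20 would. ENSRNOG00000049911 stood at 1187 CPM in VAT LAE replicate 2, against 602 CPM in the next highest and 390.7 CPM in the lowest library of the group. The median deviation of the 59 members was -0.48 in VAT LAC replicate 4, against -0.15 in the next lowest and 0.05 in the highest library of the group. Without that control library 49 genes met the conditions of the choice, all of them among the 59.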

How the results depend on the processing

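The number of members, 59 by the stated conditions, was 163 with TMM library sizes and 22 (21 of them members) with all 6 SAT LAE libraries. It ran from 49 to 102 when 1 library was left out, with 101, 102 and 96 without SAT LAE replicate 1, SAT LAE replicate 5 or SAT LAC replicate 6. The 30 members called in SAT late exercise became 0 in a fit of the late groups alone. They were 14 to 29 when 1 library was left out, with 14, 16 and 17 without LAC replicates 1, 2 or 3. Over all genes, 1126 of 14372 were called higher in the fit of all SAT groups and 0 of 13790 with the late groups alone. When 1 library was left out, all genes called higher numbered 175 to 1992, with 242, 239 and 217 without LAC replicates 1, 2 or 3. The 0 called in VAT late exercise became 4 with DESeq2 and 7 with limma voom, where 36 and 116 of all 13883 genes were called higher. They ran from 0 to 2 when 1 library was left out. The 2 were called without LAE replicate 6, where 26 of all 13983 genes were called higher. Early exercise called 0 members under every alternative run in either depot, with a median change of -0.06 to 0.03 in SAT and -0.17 to 0.03 in VAT when 1 library was left out. Over all genes DESeq2 called 3 of 14372 in SAT early exercise. The log2 change of ENSRNOG00000017473 in SAT early exercise ran from -0.48 to 0.0162, the one positive value being that without EAC replicate 3. The members called between the depots numbered 46 to 49 when 1 library was left out. Over all genes those calls ran from 5490 of 14856 to 6187 of 14788. The causes were not tested.

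Replicate numbers within a depot name different rats, and deviations of same-numbered EAE and EAC libraries correlated between -0.40 and 0.51 across 10994 genes. With the replicate block 0 members were called in early exercise in either depot (median change -0.03 in SAT and -0.09 in VAT). In SAT late exercise 23 members were called higher, beside 210 of all 14372 genes. In VAT late exercise 0 members and 0 of 13883 genes were called. Between the depots, 17 of 24 same-numbered pairs correlated over 0.1. The block gave 48 members higher in VAT and 0 higher in SAT, against 47 and 1 without it. Of all 14693 genes, 2896 were higher in VAT and 2899 higher in SAT with the block, against 2954 and 2951 without it.

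The VAT correlation and spread without the libraries that stood apart were computed after the data had been seen.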
